A study of Mus musculus with 2 samples.

Results

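The genes described here encode the machinery that takes glucose from the blood to carbon dioxide: the glucose transporters and enzymes of glycolysis, the pyruvate dehydrogenase complex with its kinases, and the enzymes of the TCA cycle, together with targets of the hypoxia response. They were chosen by name, with earlier results of these data known. Every probe set whose single platform gene symbol was on a list of 42 symbols was taken, which gave 96 probe sets for 40 genes, of 18193 genes on the arrays. Gpi1 and Eno1 had no such probe set and are named only. The 40 genes fall into 15 of glucose uptake and glycolysis, 6 of pyruvate dehydrogenase, 13 of the TCA cycle and 6 hypoxia targets.

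Their signals were compared between whole heads of newborn mice of the genotypes MatDp(dist2) and PatDp(dist2), with 1 array each. Both come from mice with the translocation T(2:9)11H, and both carry uniparental duplications of Chr 2 and Chr 9 distal of the breakpoint. In MatDp(dist2) heads the duplicated part of Chr 2 is maternal and that of Chr 9 paternal, and in PatDp(dist2) heads the parental origins are reversed. No head without a duplication was analysed here, the labels give neither the number nor the sex of the animals behind a sample, and they do not place the breakpoint on either chromosome. The comparison asks which transcripts differ with the parental origin of these parts.

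Each value is a MAS5 signal, an intensity on a linear scale for 1 probe set on 1 array, scaled by the authors. A gene is represented by its brightest probe set, and its log2 ratio has MatDp(dist2) on top and PatDp(dist2) below, so a negative value means a lower signal in MatDp(dist2). A gene counts as measured where at least 1 array reached a floor of 187.05, the middle of the 2 arrays' median signals. All 40 genes reached this floor in both samples, so no gene was lost to it. With 1 array per genotype there was no spread between replicates to set a difference against, so no test was made and a fixed 2-fold threshold is used to count. Where 1 array was below the floor, its signal was set to the floor and the ratio is a bound.

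The array's control probe sets at the 3′ and 5′ ends of Gapdh, the glycolytic enzyme that oxidises glyceraldehyde phosphate, had 3′ signals of 12938 in MatDp(dist2) against 15358 in PatDp(dist2) and a 3′ to 5′ ratio of 0.936 in MatDp(dist2) against 1.04 in PatDp(dist2). For Actb the ratio was 1.33 in MatDp(dist2) against 1.34 in PatDp(dist2). Markers of the cell types of a head were present in both, with 14 of 14 neuron markers and 15 of 15 skeletal muscle markers at or above the floor on each array. Of 8 epidermis markers, 8 reached the floor in MatDp(dist2) against 6 in PatDp(dist2).

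Glucose enters cells through transporters of the SLC2A family and is trapped as glucose 6-phosphate by hexokinases, then split by glycolysis into pyruvate, which lactate dehydrogenase can turn into lactate. In mitochondria the pyruvate dehydrogenase complex makes acetyl-CoA from pyruvate, pyruvate dehydrogenase kinases switch the complex off, and the TCA cycle oxidises the acetyl group. Many of these steps have tissue forms: neurons are rich in Slc2a3 and Eno2, while muscle uses Hk2 and Pfkm. When oxygen is low, hypoxia-inducible factors raise many glycolytic genes, Pdk1 and genes such as Vegfa and Bnip3.

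Most of the 40 genes were lower in MatDp(dist2). There 33 of them had the lower signal, while of all 12483 measured genes 48.0% did. At a ratio of 2 or more, 9 favoured PatDp(dist2), against 3.47% of measured genes, and 0 favoured MatDp(dist2), against 4.43%. The median log2 ratio of the 40 was -0.64, against 0.02 for all measured genes. Their groups were unequal: the TCA cycle had a median of -0.88, pyruvate dehydrogenase -0.92, the hypoxia targets -0.72, and glucose uptake and glycolysis -0.23. At a 1.5-fold threshold 21 of the 40 favoured PatDp(dist2), against 10.8% of measured genes, and 0 favoured MatDp(dist2), against 1496 of the 12483 measured genes. None of the 40 reached 3-fold in either direction, as 0.801% of measured genes did towards PatDp(dist2) and 1.17% towards MatDp(dist2). With loess, which corrects the ratio for brightness, or with quantile normalization, 6 genes in place of 9 were past 2-fold. Marker lists also differed, in both directions: skeletal muscle markers had a median log2 ratio of -0.58, fat markers -1.22 and neuron markers 1.06. The part of those tissues in the result was not tested.

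**Figure D1:**
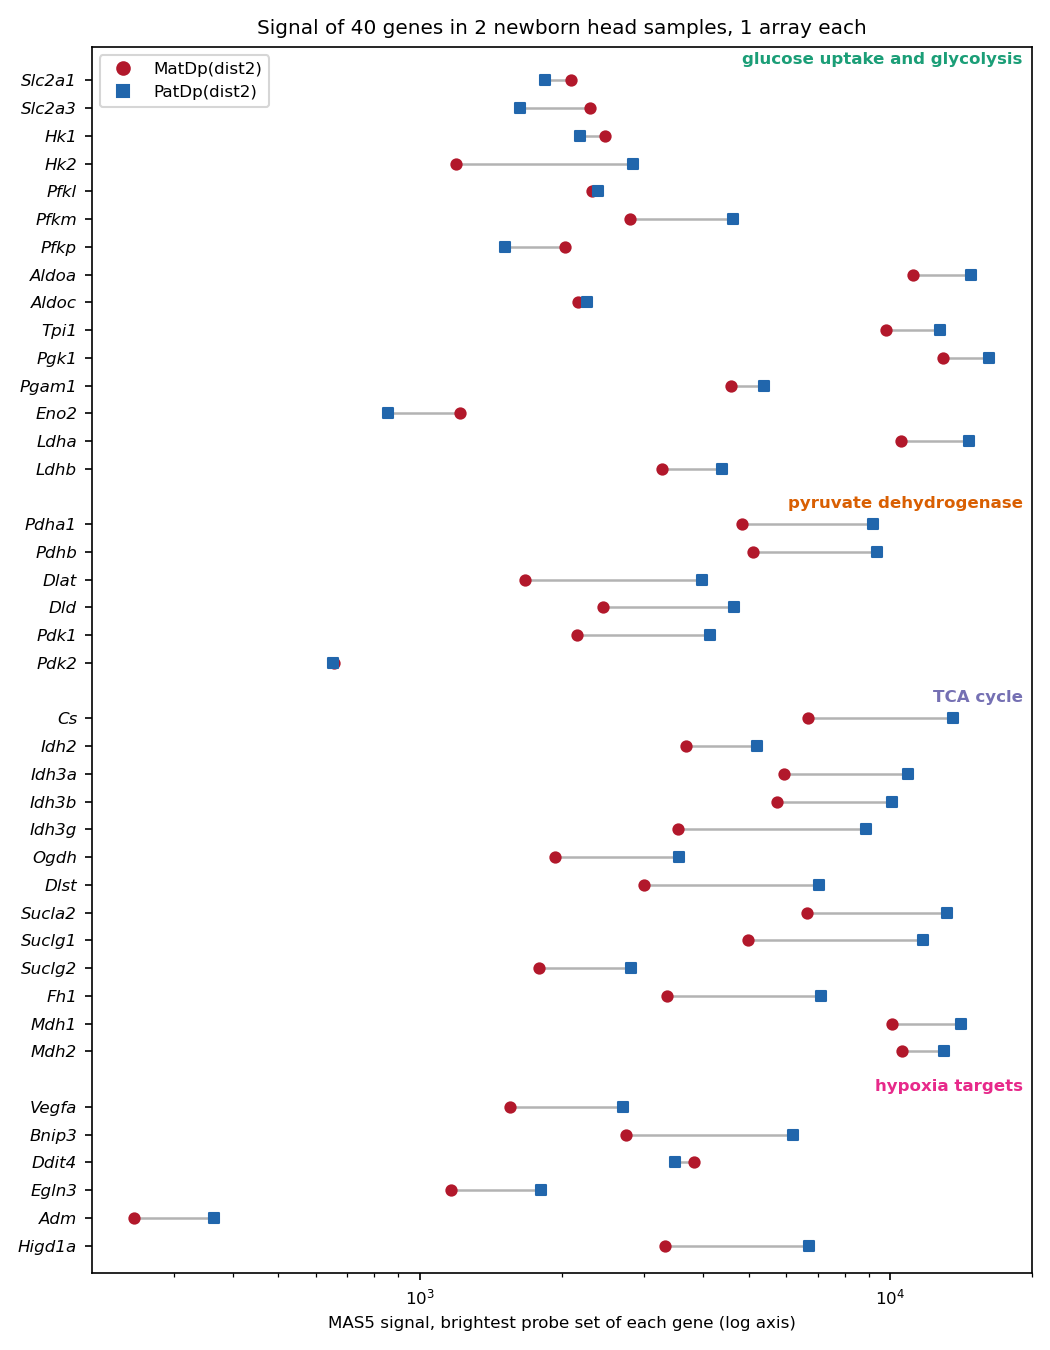
MAS5 signal (log axis) of the brightest probe set of each of the 40 genes, with a circle for MatDp(dist2), a square for PatDp(dist2) and a line joining them. In the TCA cycle every square lies to the right of its circle, while Slc2a1, Slc2a3, Hk1, Pfkp and Eno2 in the glycolytic group lie the other way round.

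Of the glucose transporters, Slc2a1 and Slc2a3 were slightly higher in MatDp(dist2), while Slc2a4 and Slc2a8 of the further list were lower there. Slc2a1, the transporter GLUT1 of the blood-brain barrier and many other cells, had a signal of 2098 in MatDp(dist2) against 1847 in PatDp(dist2), a 1.14-fold difference. For Slc2a3, the neuronal transporter GLUT3, the signals were 2297 in MatDp(dist2) against 1635 in PatDp(dist2), 1.41-fold. Each measured probe set of both genes had the higher signal in MatDp(dist2), 3 for Slc2a1 and 2 for Slc2a3, although none of these differences reached 2-fold.

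The hexokinases, which phosphorylate glucose on entry, went opposite ways. Hk1, the form of brain and most tissues, had signals of 2472 in MatDp(dist2) against 2189 in PatDp(dist2), and its dimmer probe set had 425 in MatDp(dist2) against 153.5, below the floor, in PatDp(dist2). Hk2, the form of muscle and fat that insulin and hypoxia raise, had 1193 in MatDp(dist2) against 2834 in PatDp(dist2). That 2.37-fold difference was the only one past 2-fold among the 15 glycolytic genes, taking the brightest probe set of each, and its log2 ratio stayed between -1.28 and -1.18 under the 8 other ways of processing.

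The promoters of Hk2 and Slc2a1 are shown because Hk2 was lower and Slc2a1 slightly higher in MatDp(dist2) although both genes are known targets of hypoxia-inducible factors. Each sequence is the 250 bases before a transcription start in RefSeq, build GRCm38.p6, read 5′ to 3′ on the strand of the gene. Capitals mark the core letters that these factors bind, ACGTG or GCGTG, and the letters GCATGCGC of the mitochondrial gene regulator NRF1, each on either strand. The palindrome CACGTG counts as a match on both strands, and adjoining matches merge into a longer run of capitals.
Hk2 promoter, chr6:82774455-82774704, minus strand: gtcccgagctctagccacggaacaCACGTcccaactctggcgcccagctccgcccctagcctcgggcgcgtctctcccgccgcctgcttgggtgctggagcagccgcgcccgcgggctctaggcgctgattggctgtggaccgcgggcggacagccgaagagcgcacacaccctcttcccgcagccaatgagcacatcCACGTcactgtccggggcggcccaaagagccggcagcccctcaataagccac
Slc2a1 promoter, chr4:119108495-119108744, plus strand: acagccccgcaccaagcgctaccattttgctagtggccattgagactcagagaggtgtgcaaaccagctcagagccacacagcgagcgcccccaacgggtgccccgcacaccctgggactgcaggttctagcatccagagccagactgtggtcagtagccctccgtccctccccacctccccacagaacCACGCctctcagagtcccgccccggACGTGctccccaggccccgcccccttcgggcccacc
The Hk2 promoter holds ACGTG 2 times and GCGTG 0 times, and the Slc2a1 promoter holds each 1 time. Both genes were picked for their opposite directions, so finding the letters in both says nothing on whether they go with a direction.

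Phosphofructokinase, the committing step of glycolysis, also had subunits in both directions. Pfkm, the muscle subunit, had signals of 2794 in MatDp(dist2) against 4636 in PatDp(dist2), a 1.66-fold difference. Pfkp, the platelet subunit that is also abundant in brain, had 2037 in MatDp(dist2) against 1518 in PatDp(dist2), 1.34-fold. Its second measured probe set had 395 in MatDp(dist2) against 178, below the floor, in PatDp(dist2). Pfkl, the liver subunit, had 2317 in MatDp(dist2) against 2386 in PatDp(dist2), and its direction turned with quantile normalization, with loess and with the mean over its probe sets.

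Aldolase and enolase were measured in muscle, brain and neuronal forms. Aldoa, the aldolase of muscle and most cells, had 11181 in MatDp(dist2) against 14858 in PatDp(dist2), and its 5 probe sets had log2 ratios from -1.02 to -0.41. Aldoc, the aldolase of brain, had 2165 in MatDp(dist2) against 2261 in PatDp(dist2), a direction that turned with quantile normalization and loess. Eno2, the neuronal enolase used as a marker of neurons, had 1215 in MatDp(dist2) against 854 in PatDp(dist2), 1.42-fold higher in MatDp(dist2).

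Shared enzymes of lower glycolysis were under 1.5-fold lower in MatDp(dist2) on their brightest probe sets. Tpi1, which interconverts the triose phosphates, had 9785 in MatDp(dist2) against 12732 in PatDp(dist2). Pgk1, an ATP-making step, had 12931 in MatDp(dist2) against 16226 in PatDp(dist2), and its 3 probe sets were 1.12-fold to 2.30-fold higher in PatDp(dist2). Pgam1, a phosphoglycerate mutase, had 4585 in MatDp(dist2) against 5396 in PatDp(dist2). Their log2 ratios of -0.38, -0.33 and -0.23 compare with a median of -0.21 for all genes with a mean log2 signal of 12 and over, and that of Pgam1 came to -0.03 with quantile normalization.

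Lactate dehydrogenase subunits were both lower in MatDp(dist2). Ldha, the subunit that favours lactate production, had 10536 in MatDp(dist2) against 14728 in PatDp(dist2), 1.40-fold. Ldhb, the heart-type subunit that favours lactate use, had 3271 in MatDp(dist2) against 4391 in PatDp(dist2), and its 4 probe sets had log2 ratios from -1.05 to -0.42. Ldhb was thus 1.34-fold apart on its brightest probe set and 2.06-fold apart on another.

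Pyruvate dehydrogenase was lower in MatDp(dist2) in every catalytic subunit measured. Pdha1, the alpha subunit of the first enzyme, had signals of 4833 in MatDp(dist2) against 9173 in PatDp(dist2). Pdhb, its beta subunit, had 5111 in MatDp(dist2) against 9349 in PatDp(dist2). Dlat, the acetyltransferase core, had 1673 in MatDp(dist2) against 3978 in PatDp(dist2), a 2.38-fold difference, and its 3 probe sets had log2 ratios from -1.30 to -0.91. Dld, the dehydrogenase that this complex shares with the oxoglutarate complex, had 2452 in MatDp(dist2) against 4646 in PatDp(dist2). The 4 subunits thus lay between 1.83-fold and 2.38-fold apart, in 1 direction.

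The kinases that inhibit the complex were not alike. Pdk1, the kinase that hypoxia raises, had 2159 in MatDp(dist2) against 4132 in PatDp(dist2), and its 4 probe sets were all lower in MatDp(dist2). Its brightest probe set had a log2 ratio of -0.94, but taking the probe set without a suffix for shared transcripts gave -0.40. Pdk2, a kinase expressed in most tissues, had 656.5 in MatDp(dist2) against 653 in PatDp(dist2), nearly equal signals whose order turned under the scaling alternatives. The second probe set of Pdha1 also differed less than its brightest one, with 1555 in MatDp(dist2) against 1711 in PatDp(dist2).

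All 13 TCA cycle genes had a lower signal in MatDp(dist2), and 5 of them were at least 2-fold apart. Over all measured genes 48.0% were lower there and 3.47% were past 2-fold towards PatDp(dist2). Among genes with a mean log2 signal of 12 and over, as 11 of the 13 had, these shares were 75.1% and 7.64%. Cs, citrate synthase at the entry of the cycle, had signals of 6665 in MatDp(dist2) against 13573 in PatDp(dist2), 2.04-fold. Its 2 other probe sets gave 2107 and 6093 in MatDp(dist2) against 3803 and 11060.1 in PatDp(dist2). Cs was under 2-fold with quantile normalization, with loess, with the mean over probe sets and with suffix-free probe sets.

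The NAD-linked isocitrate dehydrogenase, a complex of alpha, beta and gamma subunits that sets the pace of the cycle, was lower in MatDp(dist2) in all 3 subunits. Idh3a had 5944 in MatDp(dist2) against 10913 in PatDp(dist2), and Idh3b had 5738 in MatDp(dist2) against 10059.8 in PatDp(dist2), with 2377 in MatDp(dist2) against 5714 in PatDp(dist2) on its other measured probe set. Idh3g had 3536.5 in MatDp(dist2) against 8884 in PatDp(dist2), at 2.51-fold the largest difference among the 40 genes on their brightest probe sets. Idh2, the NADP-linked mitochondrial enzyme, differed less, with 3679 in MatDp(dist2) against 5212 in PatDp(dist2), and its dim second probe set went the other way, with 332 in MatDp(dist2) against 247 in PatDp(dist2).

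The oxoglutarate dehydrogenase complex, which releases the next carbon dioxide, followed the same direction. Ogdh, its first enzyme, had 1938 in MatDp(dist2) against 3547 in PatDp(dist2). Dlst, its succinyltransferase core, had 2990.0 in MatDp(dist2) against 7057 in PatDp(dist2), 2.36-fold. The other 3 probe sets of Dlst differed less, with log2 ratios from -0.36 to 0.13, and their mean with the brightest was -0.37. Dld, shared with pyruvate dehydrogenase, is given above.

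Succinyl-CoA ligase, which makes GTP or ATP, is built of the common subunit Suclg1 with either Sucla2 or Suclg2. Suclg1 had 4992 in MatDp(dist2) against 11724.5 in PatDp(dist2), 2.35-fold. The ATP-forming partner Sucla2 had 6633 in MatDp(dist2) against 13169 in PatDp(dist2), 1.99-fold and so just short of the threshold, with a dim probe set at 321 in MatDp(dist2) against 236 in PatDp(dist2). The GTP-forming partner Suclg2 had 1793 in MatDp(dist2) against 2807 in PatDp(dist2), 1.57-fold.

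The last steps of the cycle differed by unequal amounts. Fh1, fumarate hydratase, had 3351 in MatDp(dist2) against 7112 in PatDp(dist2), 2.12-fold, and was under 2-fold with quantile normalization and with loess. Mdh2, the mitochondrial malate dehydrogenase, had 10567 in MatDp(dist2) against 12970.2 in PatDp(dist2), 1.23-fold, and 8847 in MatDp(dist2) against 14100.2 in PatDp(dist2) on its other probe set, 1.59-fold. Mdh1, the cytosolic form that works in the malate-aspartate shuttle, had 10100.1 in MatDp(dist2) against 14107 in PatDp(dist2), 1.40-fold. Both malate dehydrogenases had a mean log2 signal over 12, where all genes lean the same way.

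Ratios on these arrays leaned with brightness, so the genes were also set beside all genes of like brightness. At a mean log2 signal of 12 and over, the median of all 759 genes was -0.21, 75.1% of them were lower in MatDp(dist2), and the shares past 2-fold were 7.64% towards PatDp(dist2) and 0.659% towards MatDp(dist2). Of the 40 genes 20 were that bright, all 20 were lower in MatDp(dist2), and 7 were past 2-fold. Among them the 11 TCA genes had a median of -0.99 and the 5 glycolytic genes one of -0.38. Between 10 and 12 the median of all genes was -0.08, with 57.7% lower in MatDp(dist2), 4.7% past 2-fold towards PatDp(dist2) and 2.94% towards MatDp(dist2). Of the 17 described genes there, 12 were lower in MatDp(dist2) and 2 past 2-fold, with a median of -0.64. Between 8 and 10 all genes leaned the other way, with a median of 0.08, 42.5% lower in MatDp(dist2), 2.82% past 2-fold towards PatDp(dist2) and 6.05% towards MatDp(dist2), and only Eno2, Pdk2 and Adm were that dim. After loess, which removes this trend, the TCA median was -0.77, that of pyruvate dehydrogenase -0.77 and that of the hypoxia targets -0.71, while that of glucose uptake and glycolysis was -0.07.

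**Figure D2:**
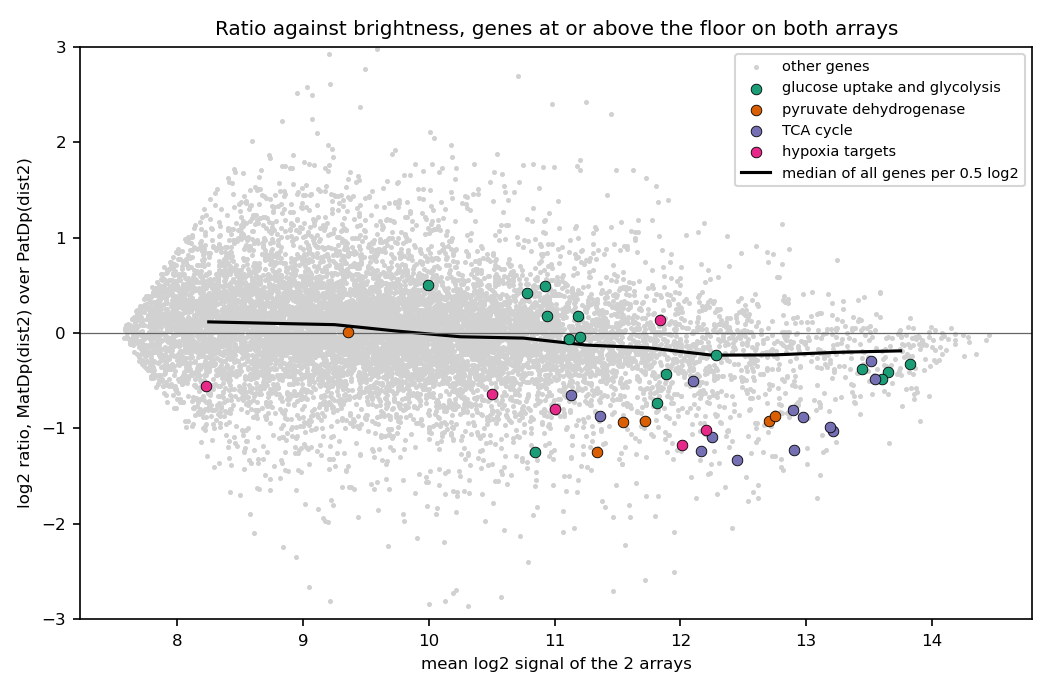
Log2 ratio of MatDp(dist2) to PatDp(dist2) signal against the mean log2 signal, for genes that reached the floor in both samples (grey), with the 40 described genes coloured by group and the median of all genes per 0.5 log2 units as a line. The 13 TCA cycle genes lie below the line, and glycolytic genes lie on both sides of it. A further 13 of 11270 genes lie outside the plotted range of 3 log2 units either way.

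Hypoxia targets were lower in MatDp(dist2) in 5 of 6 genes, 2 of them past 2-fold. Over all measured genes these shares were 48.0% and 3.47%. The 2 genes past 2-fold had a mean log2 signal of 12 and over, where the shares were 75.1% and 7.64%. Bnip3, a mitophagy receptor induced by low oxygen, had signals of 2747 in MatDp(dist2) against 6200 in PatDp(dist2), 2.26-fold. Higd1a, a hypoxia-induced protein of the inner mitochondrial membrane, had 3313 in MatDp(dist2) against 6708 in PatDp(dist2), 2.02-fold. Its second probe set had 1112 in MatDp(dist2) against 965 in PatDp(dist2), so the gene's probe sets pointed both ways.

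The other targets were under 2-fold apart. Vegfa, the growth factor of blood vessels, had 1553 in MatDp(dist2) against 2705 in PatDp(dist2), while its dimmer probe set had 350.3 in MatDp(dist2) against 343 in PatDp(dist2). Egln3, a prolyl hydroxylase that marks hypoxia-inducible factors for destruction, had 1162 in MatDp(dist2) against 1810.1 in PatDp(dist2), and its dimmer probe set had 518 in MatDp(dist2) against 499.8 in PatDp(dist2). Adm, the vasodilator peptide adrenomedullin, lay near the floor, with 247 in MatDp(dist2) against 364 in PatDp(dist2). Its suffix-free probe set was below the floor on both arrays, with 38.0 in MatDp(dist2) against 102.3 in PatDp(dist2), and gave no ratio. Ddit4, an inhibitor of mTOR signalling that glucocorticoids also raise, was the exception in direction, with 3826 in MatDp(dist2) against 3492 in PatDp(dist2).

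The promoters of Bnip3 and Higd1a, the hypoxia targets past 2-fold, and of Ddit4, the target of opposite direction, are shown in the same form.
Bnip3 promoter, chr7:138909507-138909756, minus strand: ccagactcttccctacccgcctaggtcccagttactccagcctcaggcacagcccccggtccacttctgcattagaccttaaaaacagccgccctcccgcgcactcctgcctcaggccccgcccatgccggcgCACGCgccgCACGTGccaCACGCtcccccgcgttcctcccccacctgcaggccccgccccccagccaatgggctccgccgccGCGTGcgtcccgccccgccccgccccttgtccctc
Higd1a promoter, chr9:121857797-121858046, minus strand: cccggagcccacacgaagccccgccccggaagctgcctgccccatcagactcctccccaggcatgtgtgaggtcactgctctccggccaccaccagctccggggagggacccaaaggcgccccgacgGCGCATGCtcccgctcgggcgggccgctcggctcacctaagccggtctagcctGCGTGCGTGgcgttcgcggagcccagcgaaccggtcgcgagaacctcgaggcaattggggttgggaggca
Ddit4 promoter, chr10:59951771-59952020, minus strand: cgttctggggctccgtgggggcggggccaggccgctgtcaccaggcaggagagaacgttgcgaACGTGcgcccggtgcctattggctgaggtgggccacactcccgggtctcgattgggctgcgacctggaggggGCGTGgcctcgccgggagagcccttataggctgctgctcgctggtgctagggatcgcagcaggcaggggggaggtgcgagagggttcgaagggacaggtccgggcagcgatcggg
The Bnip3 promoter holds ACGTG 2 times, in 1 palindrome, and GCGTG 3 times, the Higd1a promoter holds GCGTG 2 times and GCATGCGC 1 time, and the Ddit4 promoter holds ACGTG 1 time and GCGTG 1 time. Promoters were found for 38 of the 40 genes. A promoter with ACGTG was found for 16 of them, or 42.1%, against 24.9% of 10035 measured genes and 18.5% of all 27025 genes in the table. GCGTG was found for 23, or 60.5%, against 49.1% of measured and 30.9% of all genes. By group, ACGTG was found for 4 of 6 hypoxia targets, 7 of 14 glycolytic genes, 2 of 6 pyruvate dehydrogenase genes and 3 of 12 TCA genes. A gene with several promoters counts once if any of them matches, so more promoters give more chances of a match. The 38 genes had 54 promoters, and the number per gene was not compared with that of measured genes. Vegfa, for example, held ACGTG 0 times in promoter 1 and 1 time in promoter 2. Taking each gene's promoter richest in G and C, the median G and C share was 62.6% in the 38 genes and 61.2% in measured genes. The letters AAGGTCA bound by estrogen-related receptors, regulators of mitochondrial genes, were in 0 of 38, against 3.31% of measured genes, and GCATGCGC were in 3 of 38, or 7.89%, against 4.81%.

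Probe sets of the same gene give a partial check on the direction, since they read the same RNA with other probes but are no replicates. Of 96 probe sets, 87 were measured, of which 68 were lower and 19 higher in MatDp(dist2). The share over all measured probe sets was not taken. Of all measured genes 48.0% were lower in MatDp(dist2), and 75.1% of those with a mean log2 signal of 12 and over. Of 27 genes with more than 1 measured probe set, 20 had all of them in the same direction. The 7 others were Pfkl, Idh2, Dlst, Sucla2, Vegfa, Egln3 and Higd1a, and in each of these but Pfkl the brightest probe set was lower in MatDp(dist2) by more than any dimmer one. In the pyruvate dehydrogenase group 12 of 13 measured probe sets were lower in MatDp(dist2), in the TCA cycle 28 of 31, in glycolysis 22 of 33 and among the hypoxia targets 6 of 10.

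**Figure D3:**
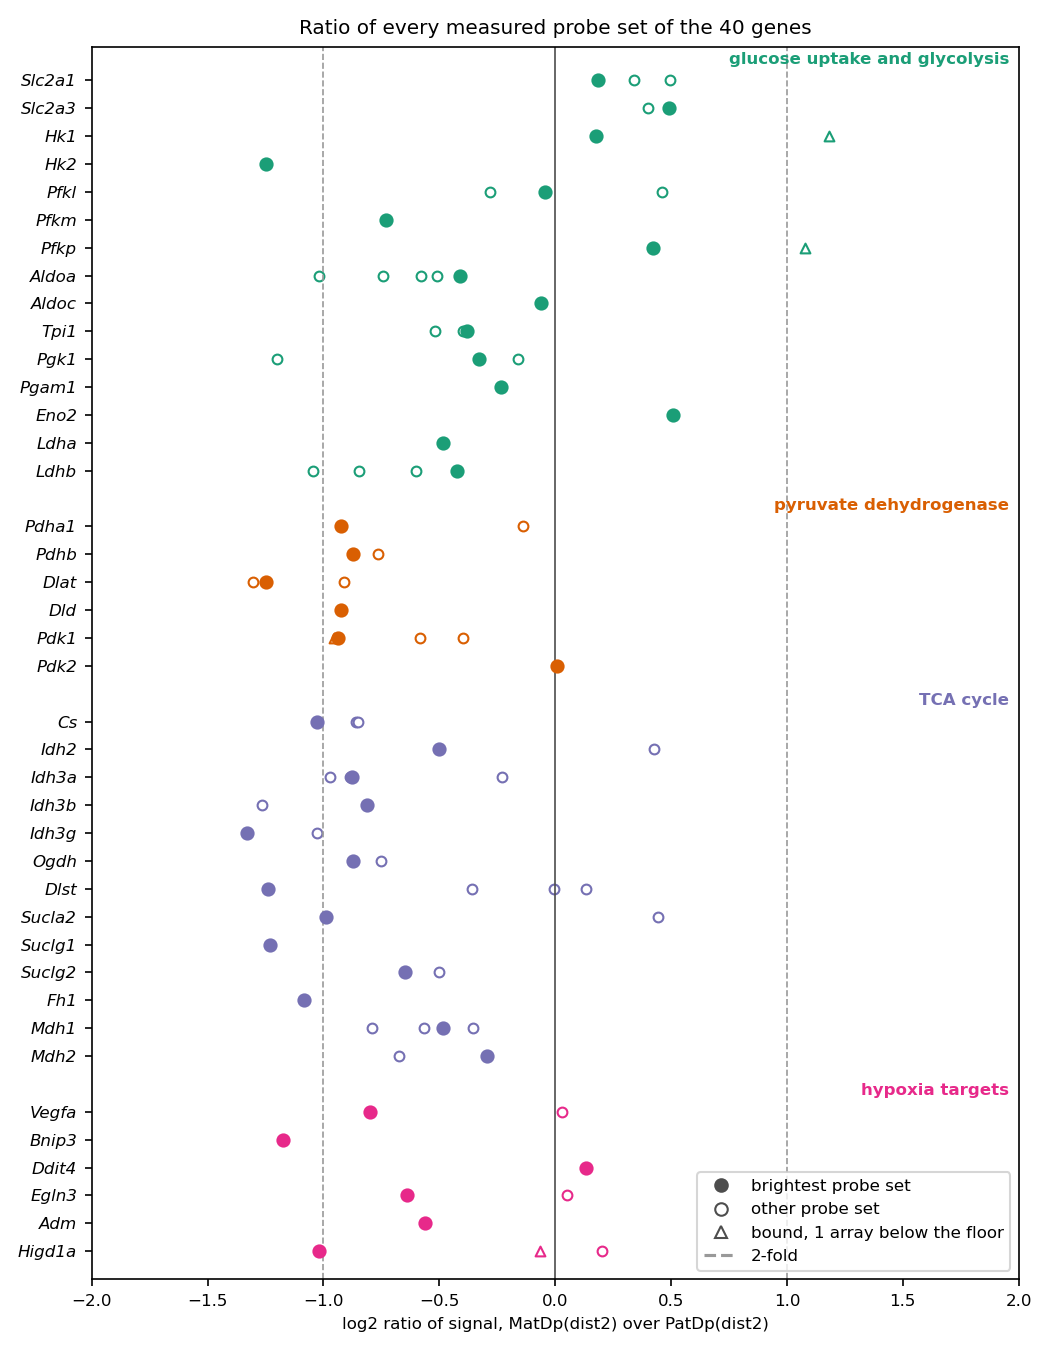
Log2 ratio of MatDp(dist2) to PatDp(dist2) signal for each of the 87 measured probe sets, by gene and group, with filled points for the brightest probe set of a gene, triangles for ratios that are bounds and dashed lines at 2-fold. Of 31 TCA probe sets 28 lie left of 0, whereas Slc2a1, Slc2a3, Hk1, Pfkp and Eno2 lie right of it on every measured probe set.

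Of the 40 genes, 2 lie on Chr 2 and 3 on Chr 9. Pdk1 and Idh3b of Chr 2 had log2 ratios of -0.94 and -0.81. Both are proximal of H13, an imprinted gene of distal Chr 2, in the gene order of GRCm38.p6, and whether they fall in the duplicated part was not determined. Dlat, Idh3a and Higd1a of Chr 9 had -1.25, -0.88 and -1.02. The 2 genes on Chr 2 and the 3 on Chr 9 were all lower in MatDp(dist2), with medians of -0.87 and -1.02. On other chromosomes 28 of the 35 genes were lower there, with a median of -0.50, against 48.0% of all measured genes. Whether position plays a part was not tested.

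Other genes of the TCA cycle and of pyruvate entry were mostly lower in MatDp(dist2) too. These and the further lists below were chosen with earlier results of these data known, so they are no independent support. Of 6 further TCA genes and succinate dehydrogenase subunits all 6 were lower in MatDp(dist2), with a median log2 ratio of -0.83. Over all measured genes 48.0% were lower there and 3.47% were past 2-fold towards PatDp(dist2). Sdha, the catalytic subunit of succinate dehydrogenase, had 3892 in MatDp(dist2) against 9326 in PatDp(dist2), 2.40-fold, and Sdhc, a membrane anchor, had 2981 in MatDp(dist2) against 5468 in PatDp(dist2). Of 7 further genes of pyruvate entry 6 were lower in MatDp(dist2). Pdk4, the kinase that fasting and fat use raise, had 583 in MatDp(dist2) against 3968 in PatDp(dist2), 6.80-fold, and Mpc1, of the mitochondrial pyruvate carrier, had 3352 in MatDp(dist2) against 6464 in PatDp(dist2).

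Of 13 measured glycolytic genes outside the 40, 5 were higher and 8 lower in MatDp(dist2), with a list median of -0.16. Over all measured genes 48.0% were lower there and 3.47% were past 2-fold towards PatDp(dist2). Slc2a4, the insulin-responsive transporter GLUT4 of muscle and fat, had 867 in MatDp(dist2) against 2185 in PatDp(dist2), 2.52-fold. Pgam2, the muscle phosphoglycerate mutase, had 4174.5 in MatDp(dist2) against 9217 in PatDp(dist2), 2.21-fold. No other gene of the list was past 2-fold. In the other direction, Pfkfb3 and Pfkfb4, which make the activator of phosphofructokinase, had log2 ratios of 0.71 and 0.58, with signals for Pfkfb3 of 625 in MatDp(dist2) against 382 in PatDp(dist2). Pkm, the pyruvate kinase of muscle, brain and most tissues, had 6835 in MatDp(dist2) against 7851 in PatDp(dist2).

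Genes of glycogen and gluconeogenesis were lower in MatDp(dist2) in 11 of 11 measured, 5 of them past 2-fold, with a median of -0.87. Over all measured genes 48.0% were lower there and 3.47% were past 2-fold towards PatDp(dist2). Pygl, the liver-type glycogen phosphorylase, had 811.5 in MatDp(dist2) against 3545 in PatDp(dist2), 4.37-fold. Pck1, which makes phosphoenolpyruvate in liver, kidney and fat, had 429 in MatDp(dist2) against 1330.2 in PatDp(dist2), 3.10-fold. Pcx, pyruvate carboxylase, had 851 in MatDp(dist2) against 2111 in PatDp(dist2). Its 3′ control probe set had 368 in MatDp(dist2) against 1172 in PatDp(dist2), and its 5′ one was below the floor on both arrays, so no 3′ to 5′ ratio is given. The muscle phosphorylase Pygm had 2634 in MatDp(dist2) against 6142 in PatDp(dist2), and Gbe1, the glycogen branching enzyme, had 316 in MatDp(dist2) against 686 in PatDp(dist2). These 5 genes were the ones past 2-fold, and they include forms of liver, muscle and fat.

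The pentose phosphate pathway, which branches off glycolysis to make NADPH, was lower in MatDp(dist2) in 5 of 6 measured genes, with a median of -0.52. Over all measured genes 48.0% were lower there and 3.47% were past 2-fold towards PatDp(dist2). Taldo1, transaldolase, had 2153 in MatDp(dist2) against 4333.5 in PatDp(dist2), 2.01-fold, and Pgd, which makes NADPH, had 1973.5 in MatDp(dist2) against 3867 in PatDp(dist2). Of 11 measured genes of the malate-aspartate shuttle and TCA side reactions, 9 were lower in MatDp(dist2) and 0 were past 2-fold. The largest differences there were those of Slc25a1, the mitochondrial citrate carrier, with 1683 in MatDp(dist2) against 2945.5 in PatDp(dist2), and Me3, a mitochondrial malic enzyme, with 249.8 in MatDp(dist2) against 426 in PatDp(dist2).

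Further hypoxia genes lay on both sides of 0. Of 17 measured targets outside the 40, 9 were higher and 8 lower in MatDp(dist2), with a median of 0.01. Over all measured genes 48.0% were lower there and 3.47% were past 2-fold towards PatDp(dist2). Only Angptl4, an inhibitor of lipoprotein lipase that fasting also raises, was past 2-fold, with 539 in MatDp(dist2) against 1899 in PatDp(dist2), 3.52-fold. Bhlhe40, a repressor of the circadian clock, followed with 689 in MatDp(dist2) against 1165 in PatDp(dist2). The regulators of the pathway had a median of -0.16 with 0 of 8 past 2-fold. Hif1a, the oxygen-regulated subunit, had 2929 in MatDp(dist2) against 2883 in PatDp(dist2). Hif1an, the asparagine hydroxylase that blocks its activity, had 1042 in MatDp(dist2) against 1919 in PatDp(dist2), and Epas1, the endothelial relative of Hif1a, had 2276 in MatDp(dist2) against 3672 in PatDp(dist2).

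Markers of several cell types differed as well, some lists lower and some higher in MatDp(dist2). In a whole head, fewer cells of a type and less RNA per cell cannot be told apart. Over all measured genes 48.0% were lower in MatDp(dist2), 3.47% were past 2-fold towards PatDp(dist2) and 4.43% towards MatDp(dist2). Of 15 skeletal muscle markers 15 were lower in MatDp(dist2), 5 past 2-fold, with a summed signal of 128763 there and 180859 in PatDp(dist2). Within that list Mb, the oxygen store myoglobin, had 224 in MatDp(dist2) against 2983 in PatDp(dist2), whereas Acta1, the actin of skeletal muscle, had 17284 in MatDp(dist2) against 17717 in PatDp(dist2). Of 9 measured brown and white fat markers 9 were lower in MatDp(dist2), 6 past 2-fold, and the list summed to 30651 in MatDp(dist2) against 76995 in PatDp(dist2). Ucp1, the uncoupling protein that defines brown fat, had 5963 in MatDp(dist2) against 13932 in PatDp(dist2). Neuron markers went the other way, with 11 of 14 higher in MatDp(dist2), 8 past 2-fold, and sums of 40994 in MatDp(dist2) against 23717 in PatDp(dist2). In MatDp(dist2) epidermis markers were higher in 8 of 8, with sums of 49448 there and 6757 in PatDp(dist2), and endothelial markers were lower in 8 of 8, with sums of 4778 there and 7438 in PatDp(dist2). No marker on these lists was at 0 on either array, and the lowest of all were Epb42, with 8.1 in MatDp(dist2) against 22.6 in PatDp(dist2), and Lep, with 10.3 in MatDp(dist2) against 12.7 in PatDp(dist2). The part of muscle, fat, neuron, skin or vessel content in the differences of the 40 genes was not tested.

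**Figure D4:**
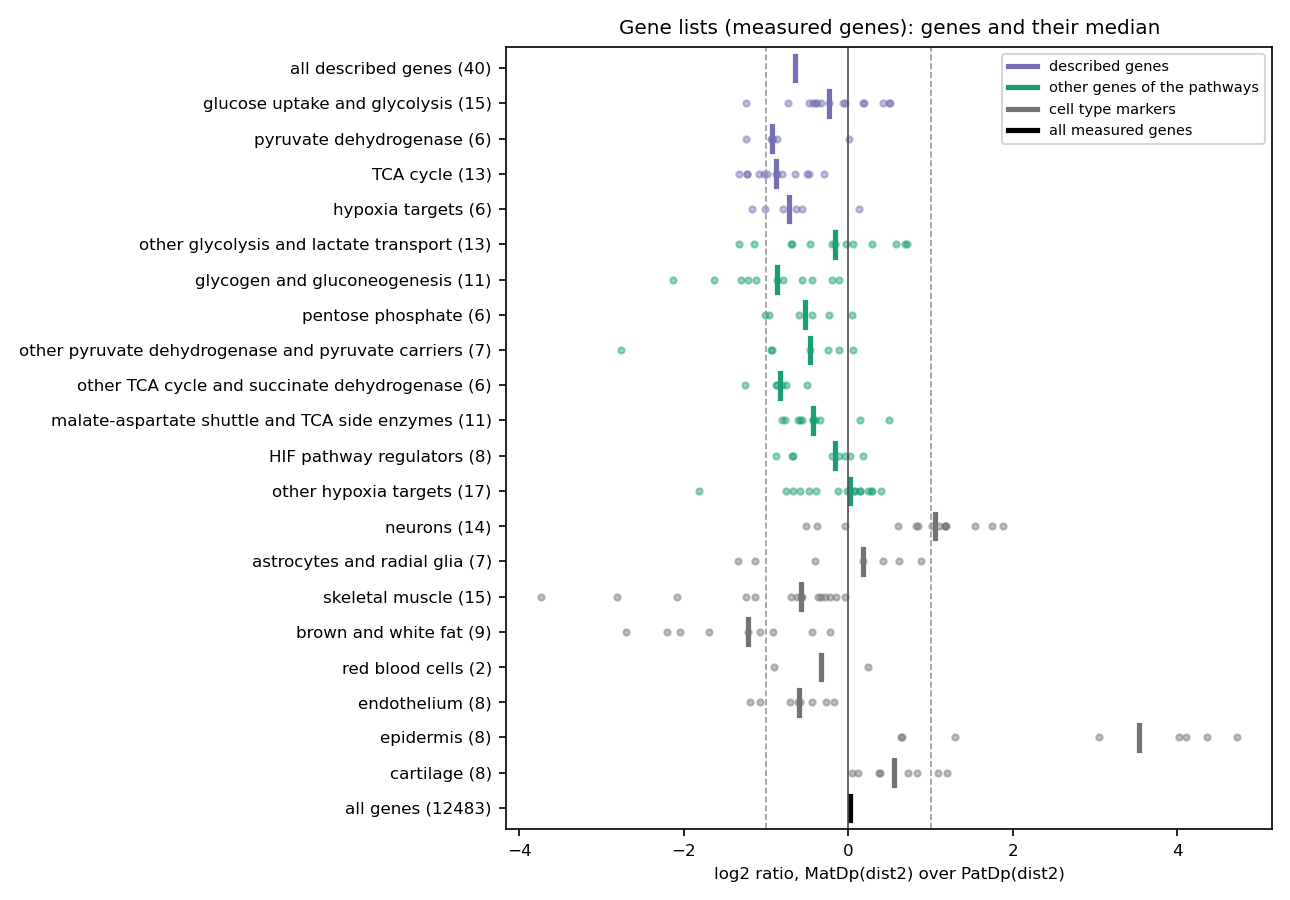
Log2 ratios of MatDp(dist2) over PatDp(dist2) signal for the measured genes of each list (points, number in brackets) with the list's median (bar), for the described genes, other genes of the pathways, cell type markers and all measured genes. The TCA cycle median of -0.88 lies with those of glycogen and gluconeogenesis (-0.87) and the further TCA genes (-0.83), between skeletal muscle (-0.58) and fat (-1.22), while neurons lie at 1.06.

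**Figure D5:**
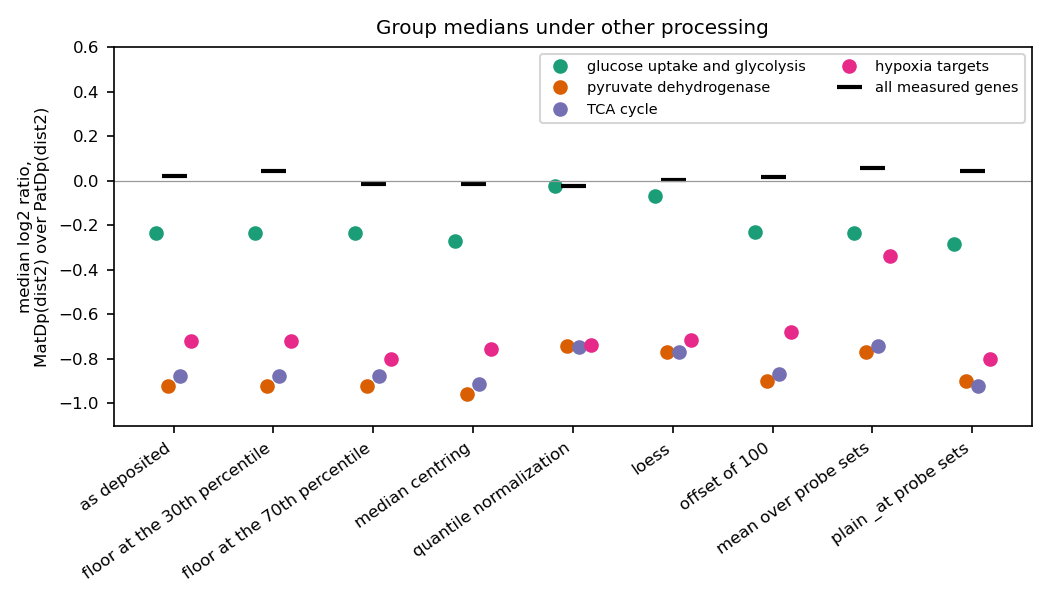
Median log2 ratio of MatDp(dist2) over PatDp(dist2) signal for the 4 groups and for all measured genes, with the deposited values and under 8 other ways of processing. The TCA cycle and pyruvate dehydrogenase medians stay between -0.96 and -0.74, glucose uptake and glycolysis comes to -0.03 with quantile normalization, and the hypoxia targets come to -0.34 with the mean over probe sets.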

How the data were processed

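Total RNA of 2 newborn whole head samples was labelled with biotin and hybridised to 1 Affymetrix array per sample. The deposited values are the authors' MAS5 signals, an intensity on a linear scale for 45101 probe sets per array, made with MAS5 and GCOS as named without versions per the submitters' processing notes. Trimmed by 2% at either end, the mean signal came to 500.002 on both arrays, so the deposited values carry a scaling to a common target. MAS5 signals are noisy when dim, and detection calls were not used here. With 1 array per genotype, the number of arrays is what limits precision.

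Probe sets were named by the platform annotation, with symbols updated through gene IDs of a RefSeq table for GRCm38.p6, which also gave chromosomes. Beside 64 control probe sets, which were dropped, 34945 had 1 symbol (34741 matched in RefSeq), 932 had several and 9160 were unlisted. Ratios were taken on the log2 scale of the deposited signal. A signal below the floor, the median of the 2 arrays' 50th percentiles, was set to the floor and the ratio called a bound. The brightest probe set stands for a gene. Bright genes such as Aldoa, Pgk1, Tpi1 and Ldha have near-identical copies in the genome that their probe sets may also read.

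Alternatives were a floor at the 30th or 70th percentile, 1.5-fold and 3-fold thresholds, median centring, quantile normalization, loess (span 0.3, statsmodels 0.14.6), an offset of 100, the mean over probe sets, and probe sets ending in _at without a suffix for shared transcripts. The ratio, floor and scaling steps were tested on simulated data. Every described gene is named with its brightest probe set, and of each further pathway list the genes past 2-fold and the 2 largest ratios among genes measured on both arrays. Pkm, Hif1a, Slc2a8, Pfkfb3, Pfkfb4, Mb, Acta1, Ucp1, Epb42 and Lep fall outside this rule and were chosen after their values were seen. The genes and lists were chosen with earlier results of these data known, so no list is independent support. Some genes of the further lists are not reported here. The astrocyte and radial glia list had a median log2 ratio of 0.18, red blood cells -0.34 with 2 genes measured, and cartilage 0.55.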

Additional observations from a re-analysis of the deposited data

How the results depend on the processing

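The count of 9 genes past 2-fold towards PatDp(dist2) was 21 at a 1.5-fold threshold and 0 at a 3-fold threshold, where 0.801% of all measured genes were past it. Under the other alternatives it lay between 6 and 10, and the count in the other direction was 0 under all of them. Quantile normalization gave medians of -0.026 for glucose uptake and glycolysis, -0.74 for pyruvate dehydrogenase and -0.75 for the TCA cycle, and loess gave -0.071, -0.77 and -0.77 in that order. The mean over probe sets gave -0.54 for all 40 genes, -0.77 for pyruvate dehydrogenase, -0.74 for the TCA cycle and -0.34 for the hypoxia targets. Every other group median moved by less than 0.1. Of the 40 genes, 36 kept their direction under each alternative of scaling, floor, offset and probe set that gave a value, and Pfkl, Aldoc, Pdk2 and Idh2 did not. Idh2 turned with suffix-free probe sets, where it had 0.43. Of the 9 genes past 2-fold, Hk2, Dlat, Idh3g, Suclg1 and Bnip3 were past it under each of these alternatives, and Cs, Dlst, Fh1 and Higd1a were not. The causes of these changes were not tested. On their brightest probe sets the 40 genes reached the floor at the 70th percentile, except Adm, which lay below it on both arrays. Some dimmer probe sets lay below the main floor, and signal over background was not assessed. No paired analysis was possible because each genotype has 1 array and there is no replicate to pair.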
